A study of Mus musculus with 24 samples.

Results

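The genes described here encode the subunits of the 5 complexes of oxidative phosphorylation, as represented on an Affymetrix MoGene 1.0 ST array. They were taken by symbol: every symbol of the platform annotation that begins with Ndufa, Ndufb, Ndufc, Ndufs, Ndufv, Uqcr or Atp5, or with Cox4 to Cox8, together with Sdha, Sdhb, Sdhc, Sdhd and Cyc1. Ndufaf genes, which encode assembly factors, and pseudogene symbols were left out. The rule gave 86 symbols, of which 83 had a probe set of their own, out of 19938 genes measured in all. Complex I had 36 of them, complex II 4, complex III 9, complex IV 17 and complex V 17. Cox7c, Ndufb4 and Ndufb4b were represented only on probe sets shared by several genes and have no value here.

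The arrays came from NIH3T3 cells, an immortalised mouse fibroblast line, grown with 10% fetal calf serum. All cells received 1 mM DFMO, which blocks ornithine decarboxylase and so depletes polyamines, for 96 h, and by the study's description were growth arrested. RNA was taken before spermidine (0 min, labelled unstimulated) and after 10 µM spermidine given with 1 mM aminoguanidine, which inhibits polyamine oxidation. These later harvests were early (30, 60 and 120 min), intermediate (240 min) or late (360, 480 and 600 min). With 3 biological replicates at every one of 8 times there were 24 arrays, and the question was how transcripts responded as growth resumed. The labels of the 0 min samples do not say whether these cells received aminoguanidine, and no arrays of cells kept in DFMO alone for the same added time were analysed here, so time after spermidine and time in culture cannot be told apart. All 7 differences from 0 min draw on the same 3 arrays of that time, so they are not separate evidence.

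Complexes I to IV pass electrons from NADH and succinate to oxygen, and I, III and IV pump protons across the inner mitochondrial membrane. Complex V, the ATP synthase, lets protons flow back and makes ATP. Complex I is entered by electrons from NADH, complex II (succinate dehydrogenase) by those from succinate, and complex III hands them through cytochrome c to complex IV, cytochrome c oxidase. Most subunits are encoded in the nucleus and imported, while a small set of core subunits is encoded in mitochondrial DNA.

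Upstream sequences are shown for 7 of these genes, chosen because their array values are described below. They are the complex I genes Ndufa11, Ndufb7 and Ndufb3, which fell furthest, Sdha of complex II, and Atp5g1, Atp5g2 and Atp5g3. The Atp5g genes encode the same ATP synthase subunit from separate promoters. Each sequence is the 130 bases before the annotated start, 5′ to 3′ on the gene's strand, from RefSeq on build GRCm38.p6. Ndufa11 lies at chr17:56717632-56717761 (plus strand), Ndufb7 at chr8:83566628-83566757 (plus strand), Ndufb3 at chr1:58586267-58586396 (plus strand) and Sdha at chr13:74350241-74350370 (minus strand). Atp5g1 lies at chr11:96075632-96075761 (minus strand), Atp5g2 at chr15:102671048-102671177 (minus strand) and Atp5g3 at chr2:73911327-73911456 (minus strand). Capitals mark letters that match a searched motif on either strand.
Ndufa11: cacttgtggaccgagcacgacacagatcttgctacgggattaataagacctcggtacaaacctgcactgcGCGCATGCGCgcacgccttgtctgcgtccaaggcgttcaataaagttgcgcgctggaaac
Ndufb7: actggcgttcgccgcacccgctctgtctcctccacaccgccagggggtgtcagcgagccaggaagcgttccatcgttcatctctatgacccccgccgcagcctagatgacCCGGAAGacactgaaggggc
Ndufb3: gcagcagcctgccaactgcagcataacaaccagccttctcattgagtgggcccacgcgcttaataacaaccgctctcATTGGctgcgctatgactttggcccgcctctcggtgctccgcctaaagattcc
Sdha: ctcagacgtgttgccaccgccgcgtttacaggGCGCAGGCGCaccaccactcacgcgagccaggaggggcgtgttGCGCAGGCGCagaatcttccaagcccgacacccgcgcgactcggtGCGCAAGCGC
Atp5g1: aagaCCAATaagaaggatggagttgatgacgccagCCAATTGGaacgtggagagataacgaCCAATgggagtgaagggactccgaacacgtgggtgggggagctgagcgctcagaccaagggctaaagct
Atp5g2: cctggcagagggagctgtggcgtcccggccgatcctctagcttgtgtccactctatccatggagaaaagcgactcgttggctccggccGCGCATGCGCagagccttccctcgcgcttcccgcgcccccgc
Atp5g3: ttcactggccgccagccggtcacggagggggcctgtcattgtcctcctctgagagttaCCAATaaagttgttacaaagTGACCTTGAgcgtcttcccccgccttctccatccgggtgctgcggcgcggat

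The motifs searched on both strands were the palindrome-like core motif of NRF1, the GABP (ETS) motif CCGGAAG, the YY1 motif AAGATGGC, the ERR motif TCAAGGTCA and the CCAAT box. NRF1 matches are the capitals in Ndufa11 and Sdha, and a match at one position on both strands was counted once. NRF1, GABP and the ERR factors are well-known regulators of nuclear genes for mitochondrial proteins. RefSeq promoter windows of 300 bases, of which 250 lie before the start, were matched to 67 of the 83 genes (72 windows). The NRF1 motif was present in 23.6% of these windows and in 4.6% of all 32851 windows, the GABP motif in 23.6% and 8.86%, the YY1 motif in 13.9% and 2.75%, the CCAAT box in 41.7% and 37.4%, and the ERR motif in 2.78% and 0.423%. In the stretches printed, Ndufa11 and Atp5g2 have 1 NRF1 match each and Sdha has 3, Ndufb7 has a GABP match, and Ndufb3 and Atp5g1 have CCAAT boxes. Atp5g3 has a CCAAT box and an ERR match. In the 23 windows of subunit genes called lower at 600 min, the NRF1 motif was present in 30.4% and the GABP motif in 21.7%. The YY1 motif was present in 8.7% of these 23, the CCAAT box in 26.1% and the ERR motif in 0%. Differences between these shares were not tested. A match describes the letters and is not evidence that a factor binds there.

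Values are log2 intensities summarised per probe set, and the probe set with the highest mean stood for a gene with several. Of the 83 genes, 72 had a mean of at least 6 over the 24 arrays and 11 were below it. Among these 11 were 8 paralogues known mainly from other tissues or from particular conditions, namely Ndufa4l2, Cox4i2, Cox6a2, Cox6b2, Cox7a1, Cox7b2, Cox8b and Cox8c, with means between 3.69 (Cox8b) and 4.42 (Cox7b2). Their widely expressed counterparts Ndufa4, Cox4i1, Cox6a1, Cox6b1, Cox7a2, Cox7b and Cox8a had means between 9.47 (Cox6b1) and 11.13 (Ndufa4); levels of different probe sets are not measured on one scale, so these are signal levels only. Ndufs5 (4.04), Ndufb2 (5.53) and Ndufb10 (5.73) were also dim on their own probe sets. Of 10 fibroblast markers 9 had means of at least 6, and of 6 macrophage markers 1 did. No marker of epithelium, striated muscle, heart, adipocytes or germ cells (25 listed in all) reached it. Among these lists 3 fibroblast markers were higher at 600 min, 1 epithelial and 2 striated muscle markers were lower, and their part in the results below was not tested.

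Along the first principal component of all genes, which held 63.1% of the variance, replicate 3 of 120 min lay at 2.61, near replicates 1 and 2 of 240 min (2.07 and 1.49). Replicate 3 of 240 min lay at -13.2, near replicates 1 and 2 of 120 min (-12.2 each). Both arrays thus lay away from the others of their labelled time. Replicate 3 of 120 min enters the early mean of the late-against-early comparison, while replicate 3 of 240 min enters neither of its means. Through the shared estimate of the spread, both arrays affect every comparison. Without this pair the subunit genes lower and higher were 3 and 1 at 360 min, 13 and 3 at 480 min, 26 and 2 at 600 min, and 14 and 4 late against early. Of all genes 11.2%, 15.3%, 16.5% and 19.5% were then lower, and 20.6%, 25.7%, 28.5% and 35.8% were called in either direction. Replicate numbers carry equal means in the deposited values, so p-values with the number as a block, which counts the degrees of freedom so used, are given beside each call they end.

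For the first 240 min no subunit gene passed the threshold, a limma adjusted p under 0.05 over all genes tested. Counts of 0 at 30, 60, 120 and 240 min stood beside 0.015%, 0.0251%, 0.471% and 3.06% of all genes called in either direction. At an unadjusted p under 0.05 the subunit genes numbered 2, 1, 9 and 9, beside 5.54%, 5.14%, 12.2% and 15.4% of all genes. Leaving out both of these arrays, 1 subunit gene was higher at 240 min (beside 8.34% of all genes called), and 1 was also higher without replicate 2 of 240 min alone.

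At 360 min 3 subunit genes fell, beside 10.5% of all genes, and 1 rose, beside 8.47%. Of all genes with a mean of at least 6, 23.3% fell and 17.7% rose. Of the 72 subunit genes of such a mean, 3 fell (4.17%) and 1 rose. The genes that fell were Ndufs7, which carries the last iron-sulfur cluster before ubiquinone (-0.22 ± 0.054, SE, adjusted p = 0.0056), the complex III core gene Uqcrc2 (-0.17 ± 0.054, 0.033) and Sdha (-0.16 ± 0.048, 0.022). The one that rose was Ndufv2, an iron-sulfur subunit gene of the NADH-oxidising module (0.29 ± 0.075, 0.0087). The Ndufs7 call held on removal of any single array. The Ndufv2 call was lost without replicate 1 of 360 min (adjusted p = 0.053). Calls of Sdha were lost without replicate 3 of 0 min or replicates 1 or 2 of 360 min, with adjusted p up to 0.097. Those of Uqcrc2 were lost without replicates 2 or 3 of 0 min or replicates 1 or 3 of 360 min, with adjusted p up to 0.12, and also with the replicate block (0.056) and after quantile normalization (0.058). The count of falls became 6 without replicate 1 of 0 min, and 1 without replicate 3 of 0 min or without replicate 1 of 360 min. The count of rises was 0 without replicate 1 of 360 min and 2 without replicate 3 of that time.

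At 480 min 11 subunit genes fell (13.3% of the 83, beside 14.5% of all genes) and 2 rose (beside 9.73% of all genes), namely Cyc1 and Ndufv2. Of all genes with a mean of at least 6, 32.1% fell and 18.7% rose. Of the 72 subunit genes of such a mean, 10 fell (13.9%) and 2 rose. Of the 11 that fell, 10 were also lower at 600 min. With the replicate block 10 subunit genes fell, beside 13.3% of all genes, and Ndufa5 lost its call (adjusted p = 0.057). Ndufv2 (0.22 ± 0.075) was no longer called after removal of replicates 1 or 3 of 0 min or replicates 2 or 3 of 480 min. Cyc1 (0.14 ± 0.043) was no longer called after removal of replicate 2 of 0 min or replicates 1 or 2 of 480 min. Adjusted p then reached 0.16 for Ndufv2 and 0.14 for Cyc1. Ndufv2 lost its call also with the replicate block (0.059) and with centred arrays (0.056), and Cyc1 with only the arrays compared in the fit (0.098). The count of rises was 0 without replicate 2 of 480 min, and 1 without replicate 3 of that time or without replicate 1 or 2 of 0 min.

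At 600 min 24 subunit genes had fallen, 28.9% of the 83 beside 15.7% of all genes, and 1 had risen, beside 11.2%. Genes of higher signal were called more widely, and among the 6835 genes with a mean of at least 6 the share that fell was 35.3% and the share that rose 20%. Of the 72 subunit genes with such a mean, 23 fell (31.9%) and 1 rose. All 3 arrays of 600 min lay below all 3 of 0 min for 34 of the 83 (19.9% of all genes), and for 33 of the 72 (40.1% of the 6835). As a count, falls were above the share of all genes and near that of genes of like signal. Changes below 0, with no threshold, were found in 73 of the 83, beside 47.5% of all genes. They were found in 66 of the 72 (91.7%) and in 59.6% of the 6835. The median change was -0.14 for the 72 and -0.08 for the 6835, and the middle 50% of changes ran from -0.25 to -0.05 and from -0.30 to 0.14, respectively. A called change of at least 0.5 in size was seen in 1 of 83 subunit genes, beside 8.53% of all genes and 19.6% of those with a mean of at least 6. That gene was Ndufa11, which did not reach this size as the mean of its probe sets (-0.47). With the replicate block 20 subunit genes fell at 600 min, beside 14.4% of all genes, and 0 rose, beside 1961 of the 19938. An F-test over all 7 differences from 0 min called 20 of the 83 (24.1%, beside 30.9% of all genes) and 19 of the 72 (26.4%, beside 62.8%). No test of the difference between the list and other genes was made. In bulk RNA, fewer cells expressing a gene and less RNA per cell cannot be told apart, and a change in total RNA per cell is not visible after this normalization.

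**Figure D1:**
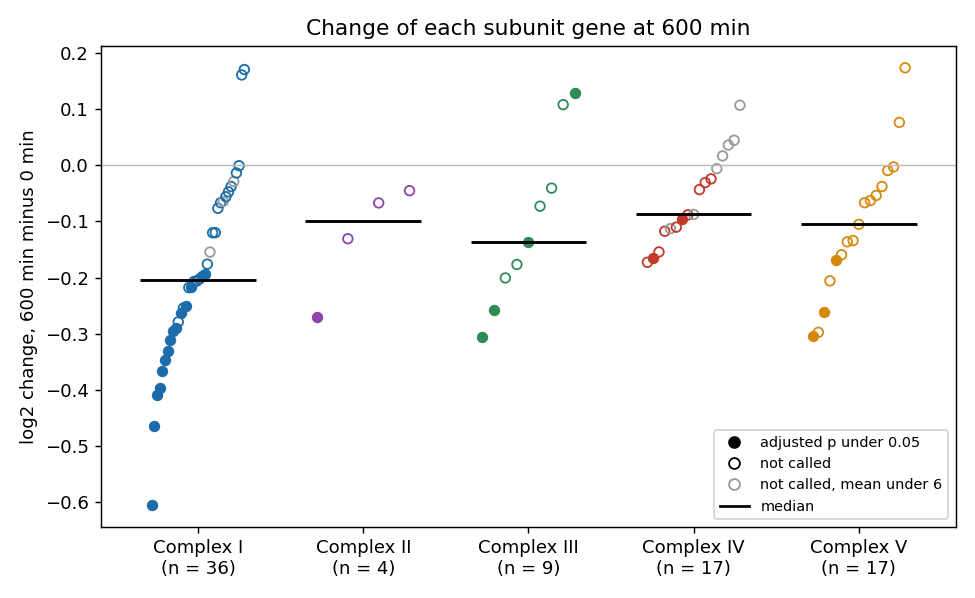
Log2 change at 600 min against 0 min (vertical axis) of each of the 83 subunit genes, grouped by complex and ordered by change within it. Filled points passed an adjusted p of 0.05, open points did not, grey open points had a mean under 6, and bars are medians. Complex I has the lowest median (-0.20) and 15 of the 24 genes that fell, and Cyc1 of complex III is the one filled point above 0.

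By complex, falls at 600 min were most numerous in complex I. There 15 of 36 fell (41.7%), with a median change of -0.20. In complex II 1 of 4 fell, with a median of -0.10. In complex III 3 of 9 fell and 1 rose, with a median of -0.14. In complex IV 2 of 17 fell, and these were 2 of the 10 with a mean of at least 6; the median was -0.09. In complex V 3 of 17 fell, with a median of -0.11. Beside these stood falls of 15.7% of all genes, with a median of 0.01, and of 35.3% of genes with a mean of at least 6, with a median of -0.08. Of the complex I genes of such a mean 14 of 32 fell (43.8%). Moving Ndufa4, now often counted as a complex IV subunit, to complex IV gave medians of -0.21 for complex I and -0.07 for complex IV. The differences between complexes are descriptions and were not tested.

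The medians were also taken on each array. With each gene set against its 0 min mean, the median over complex I was -0.19, -0.20 and -0.19 on the 3 arrays of 600 min, and -0.03, 0.02 and 0.00 on those of 0 min. For complex IV it was -0.04, -0.10 and -0.07 at 600 min, and for complex V -0.03, -0.14 and -0.11. Complex III gave -0.10, -0.13 and -0.14, and complex II, with its 4 genes, -0.08, -0.10 and -0.18. Each array of 600 min was thus lowest for complex I, and all 3 complex I medians lay below every 0 min array.

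**Figure D2:**
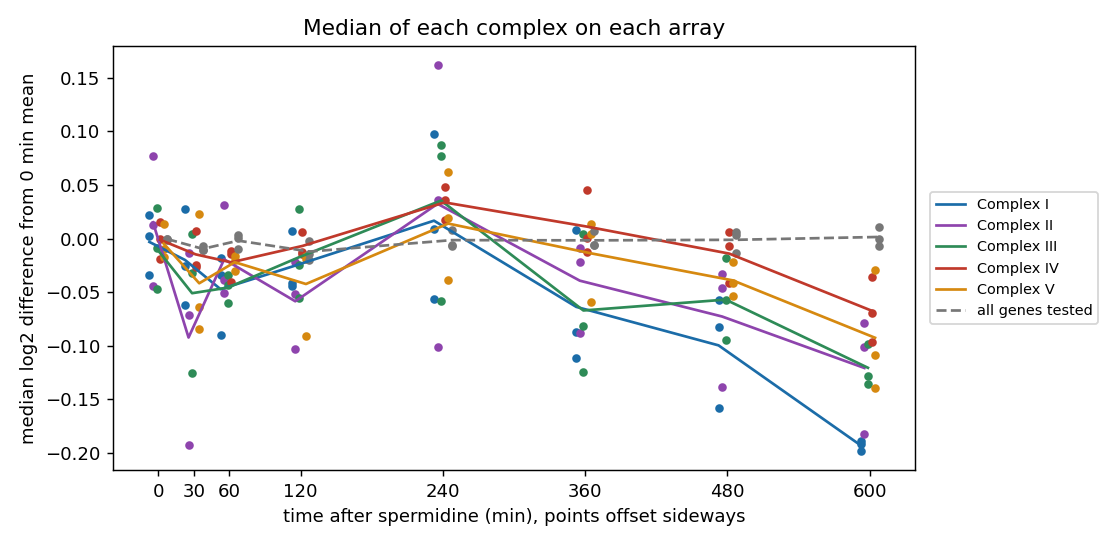
Median over the genes of each complex of the log2 difference from the 0 min mean (vertical axis) on each of the 24 arrays, by time after spermidine in minutes (horizontal axis, points offset sideways by set). Points are arrays, lines join the means of the 3 arrays of a time, and the dashed line is the median over all genes tested. Single arrays scatter widely before the late times (complex II at -0.19 on 1 array of 30 min and 0.16 on 1 of 240 min), and complex I is lowest at 600 min, at -0.19 to -0.20.

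Within complex I, Ndufa11, Ndufb3, Ndufb7 and Ndufa7 fell furthest, and all encode supernumerary subunits, which surround the catalytic core. Of the 36 complex I genes 30 are not of the core. The median change was -0.2045 for these 30 and -0.2052 for the 6 core genes. Ndufa11, a membrane-arm subunit gene, had log2 values of 8.63, 8.82 and 8.69 at 0 min and 8.19, 8.19 and 7.95 at 600 min. No array of 600 min reached those of 0 min, and the change was -0.60 ± 0.098 (SE, adjusted p = 7.4e-05), so that its linear signal fell by 34.2%. A second probe set of Ndufa11 changed by -0.34, and the mean of its probe sets by -0.47. At 480 min Ndufa11 still had 8.53, 8.57 and 8.61, so most of its change came after that time.

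Ndufb3, another membrane-arm subunit gene, had 7.35, 7.53 and 7.61 at 0 min. At 480 min it had 7.06, 7.10 and 7.22, and by 600 min 6.99, 6.93 and 7.18. Its values at both late times lay below all of 0 min, with changes of -0.37 ± 0.075 and -0.46 ± 0.075 (adjusted p = 0.00078 and 7e-05). Ndufb7, which encodes a subunit on the intermembrane-space side, had 8.93, 9.11 and 9.13 at 0 min and 8.74, 8.62 and 8.57 at 600 min, again without overlap (-0.41 ± 0.064, 5.1e-05). The supernumerary subunit gene Ndufa7 went from 7.19, 7.29 and 7.17 to 7.00, 6.85 and 6.60 (-0.40 ± 0.10, 0.005). Each of these 4 calls at 600 min held on removal of any single array.

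The catalytic core of complex I, which holds the flavin and the iron-sulfur clusters, is represented by 6 nuclear genes, and 4 of them fell at 600 min. All 6 had a mean of at least 6. Of all genes of such a mean 35.3% fell, and of all genes 15.7%. The difference was not tested. Ndufs8 had 8.70, 8.82 and 8.70 at 0 min and 8.50, 8.53 and 8.08 at 600 min (-0.37 ± 0.12, adjusted p = 0.031), with 1 array of 600 min far lower than the others. Its call was lost without any one of the 0 min arrays or without replicate 3 of 600 min, where the change was -0.22 (adjusted p = 0.22). It was also lost after quantile normalization (0.068) and with only the arrays compared in the fit (0.051). Ndufs7 fell by 0.25, Ndufs3 by 0.22 and Ndufs1, which encodes the largest subunit, by 0.19. Those 3 calls held on removal of any single array. The NADH- and flavin-binding subunit gene Ndufv1 changed by -0.18 (adjusted p = 0.16) and Ndufv2 by 0.17 (0.11). The rise of Ndufv2 did pass the threshold after quantile normalization and with only the arrays compared in the fit. Ndufs1, Ndufs3, Ndufs7, Ndufv1 and Ndufv2 are given beyond the largest changes because they complete the core, and were chosen after their values were seen.

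Of the 30 other complex I genes 11 fell (36.7%, beside 15.7% of all genes). Of the 26 with a mean of at least 6, 10 fell (38.5%), near the 35.3% of all genes of such a mean. Ndufb11 (-0.30, adjusted p = 0.05, just below the threshold before rounding) lost its call without any one of the 6 arrays compared, with adjusted p up to 0.24, and also with the replicate block (0.073), with centred arrays (0.053) and after quantile normalization (0.11). A second probe set of Ndufb11 changed by -0.41. Ndufa13, also known as Grim19, lost its call of -0.31 without any one array except replicate 2 of 600 min, with adjusted p up to 0.19. It was lost too with the replicate block (0.051) and after quantile normalization (0.086). Ndufa2 lost its call of -0.29 without replicates 1 or 3 of 0 min or replicate 2 of 600 min (adjusted p up to 0.061). Ndufa5, Ndufa8, Ndufa10 and Ndufb10 kept theirs in every such fit. These 7 genes too were named after their values were seen.

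Complex II, whose 4 subunits are all encoded in the nucleus, was uneven. Sdha, the flavoprotein that oxidises succinate, had 10.39, 10.37 and 10.45 at 0 min and 10.02, 10.18 and 10.19 at 600 min. The groups did not overlap, and the change of -0.27 ± 0.048 (adjusted p = 0.0002) held on removal of any single array. Sdhb, the iron-sulfur subunit gene, had 8.25, 8.36 and 8.17 against 8.19, 8.09 and 8.11, which overlapped (-0.13, 95% interval -0.30 to 0.04). The membrane anchor genes Sdhc (-0.07, -0.20 to 0.07) and Sdhd (-0.05, -0.18 to 0.09) were not called either. These intervals leave room for changes of Sdhb as large as that of Sdha.

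Complex III held both directions. Uqcrc2, a core subunit gene, had 10.23, 10.31 and 10.30 at 0 min and 9.92, 9.95 and 10.05 at 600 min (-0.31 ± 0.054, adjusted p = 0.00017). Its linear signal fell by 19.1%, and the call held on removal of any array. Cyc1, which encodes the cytochrome c1 subunit that passes electrons to cytochrome c, had 9.88, 9.79 and 9.90 at 0 min and 9.99, 9.94 and 10.03 at 600 min. All 3 late arrays were above those of 0 min, by 0.13 ± 0.043 on average (adjusted p = 0.031). That call was lost without replicate 2 of 0 min or without replicates 1 or 3 of 600 min, with adjusted p up to 0.17. Without replicate 2 or 3 of 0 min, the number of subunit genes that rose at 600 min was 0 and 2, respectively, and it was 0 without replicate 1 or 3 of 600 min. The small subunit gene Uqcrq (-0.26 ± 0.087, 0.033) was no longer called after removal of replicate 2 of 0 min or replicates 2 or 3 of 600 min. The other core subunit gene, Uqcrc1 (-0.14 ± 0.047, 0.036), was not after removal of replicate 1 of 0 min or any one array of 600 min. Adjusted p then reached 0.19 for Uqcrq and 0.20 for Uqcrc1. With only the arrays compared in the fit, Cyc1 (0.099), Uqcrq (0.067) and Uqcrc1 (0.076) lost their calls too. With the replicate block the same held for Cyc1 (0.053), Uqcrq (0.051) and Uqcrc1 (0.059). Cyc1 also lost its call with trend and robust eBayes (0.063), and Uqcrc1 with centred arrays (0.052) and after quantile normalization (0.072).

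Complex IV had a median change of -0.09 over its 17 genes and -0.10 over the 10 with a mean of at least 6, beside -0.10 for complex II. Cox5b had 11.23, 11.22 and 11.25 at 0 min and 11.14, 11.11 and 11.16 at 600 min, a separation of small size (-0.10 ± 0.029, adjusted p = 0.016). Cox7a2 had 9.77, 9.75 and 9.73 against 9.55, 9.61 and 9.59 (-0.17 ± 0.049, 0.014). Both groups of arrays were separate, and both falls rest on a small spread. The Cox5b call was lost on removal of replicate 3 of 0 min or replicate 2 of 600 min (adjusted p up to 0.077). It was also lost without genes of mean under 6 (0.053), after quantile normalization (0.054), with trend and robust eBayes (0.051) and with only the arrays compared in the fit (0.12). The Cox7a2 call was lost without replicate 1 of either time (up to 0.053). At 480 min the 1 complex IV gene called was Cox7b2, whose signal was near that of unexpressed genes (mean 4.42), and whose call was lost without replicates 2 or 3 of 0 min or replicate 2 of 480 min (up to 0.15), or with only the arrays compared (0.095).

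In complex V no gene of the 5 for the catalytic head and central stalk passed the threshold. Beside this and the counts that follow, 15.7% of all genes fell, and 35.3% of those with a mean of at least 6. The parts of complex V hold 3 to 5 genes each, and differences between them were not tested. Of 4 peripheral stalk genes 1 fell, Atp5j, from 10.96, 10.96 and 11.05 to 10.87, 10.80 and 10.81 (-0.17 ± 0.043, adjusted p = 0.0055), and the call held on removal of any single array. Of 5 genes for small membrane subunits 1 fell, Atp5k, from 8.05, 8.07 and 8.21 to 7.93, 7.93 and 7.69 (-0.26 ± 0.085, 0.027). The Atp5k call was lost without replicate 3 of either time (adjusted p up to 0.17) and after quantile normalization (0.063).

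The c ring, which turns as protons pass, is encoded by 3 genes whose products share one mature sequence and differ in the import signal that is cut off. Atp5g1 had 9.31, 9.34 and 9.38 at 0 min and 9.17, 9.06 and 8.89 at 600 min, and fell by 0.30 (SE 0.079, adjusted p = 0.0062). Without replicate 3 of 600 min the change was -0.23 and the call was lost (0.052). Atp5g2 had 11.31, 11.33 and 11.39 against 11.18, 11.21 and 11.23, which did not overlap but did not pass the threshold (-0.13, 0.11). Atp5g3 had 11.27, 11.48 and 11.44 against 11.42, 11.51 and 11.50, with overlap (0.08, 0.54). In the 130 bases printed above, Atp5g1 and Atp5g3 have CCAAT boxes and Atp5g2 has an NRF1 match. In the full windows Atp5g3 also has an NRF1 match, 12 bases past the start.

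Whether the use of such paralogues shifted was tested on the difference of their log2 values on each array, 9 late arrays (360, 480 and 600 min) against 9 early ones (30, 60 and 120 min), with a two-sided exact permutation test adjusted over 4 pairs. The Atp5g1 to Atp5g3 difference was -2.12 ± 0.13 early and -2.30 ± 0.19 late (SD), a shift of -0.18 (p = 0.037, adjusted p = 0.14 in the exact permutation test). For Atp5g2 to Atp5g3 the shift was -0.13 (adjusted p = 0.14), for Atp5g1 to Atp5g2 -0.05 (0.47) and for Cox7a2 to Cox7a2l -0.02 (0.68). No pair passed the threshold with all arrays. Without replicate 1 of 480 min the shifts of Atp5g1 to Atp5g3 (-0.22, adjusted p = 0.022) and Atp5g2 to Atp5g3 (-0.16, 0.028) did. The other 8 pairs listed had 1 gene with a mean under 6 and were not tested.

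**Figure D3:**
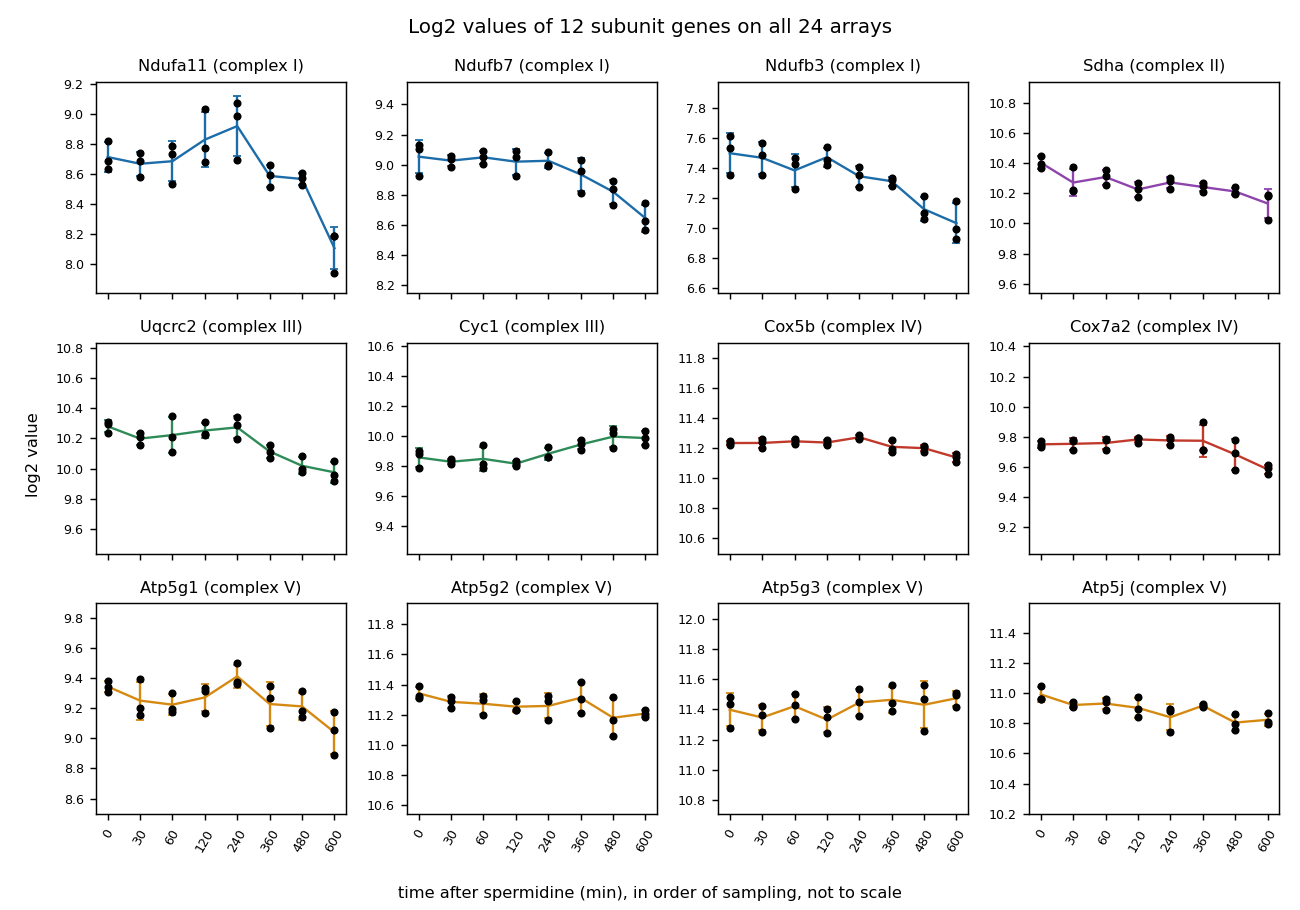
Log2 values (vertical axes, each spanning the same range) of 12 subunit genes on all 24 arrays by time after spermidine in minutes (horizontal axis, in order and not to scale). Points are arrays and lines join the means with the SD of 3 replicates. Ndufa11 drops between 480 and 600 min (from 8.53 to 8.61, down to 7.95 to 8.19), Ndufb3 and Uqcrc2 decline over the later times, and Cyc1 is higher late.

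A further comparison used no 0 min array, though it shares the 600 min arrays with that above. Against the mean of 30, 60 and 120 min, the mean of 360, 480 and 600 min was lower for 17 subunit genes (20.5% of 83, beside 19.4% of all genes) and higher for 3 (beside 16.4%). Of the 72 with a mean of at least 6, 16 were lower (22.2%), beside 40.4% of the 6835 genes of such a mean. Of the 17, 16 had also been called lower at 600 min, in part from the same arrays. With the replicate block 13 were lower, beside 18.4% of all genes. Atp5j (adjusted p = 0.055), Ndufa10 (0.052), Ndufa8 (0.067) and Sdha (0.072) lost their calls in that fit. Ndufa11 (-0.31 ± 0.057), Ndufb3 (-0.28 ± 0.043), Ndufs8 (-0.26 ± 0.071), Ndufb7 (-0.23 ± 0.037), the small ATP synthase subunit gene Atp5md (-0.20 ± 0.045) and Uqcrc2 (-0.19 ± 0.031) fell furthest. Atp5md, Atp5pb and Ndufb9 are named here after their values were seen. All 6 calls held on removal of any single array. Of the 3 that rose, Cyc1 (0.14 ± 0.025, adjusted p = 7.9e-05) and the peripheral stalk gene Atp5pb (0.16 ± 0.044) kept theirs. The call of Ndufb9 (0.11 ± 0.039) was lost in 7 of 18 fits that left out an array. Without replicate 2 of 360 min 11 genes were lower, and without replicate 1 of 480 min 5 were higher.

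Factors that assemble the complexes, and are not part of them, included larger falls than the subunits did. Of 45 assembly factor genes measured 26 fell at 600 min (57.8%), 1 rose, and 12 changed by at least 0.5 in size, beside 1 of the 83 subunit genes; their median change was -0.27. Among all genes 15.7% fell and 8.53% were called with such a size. Of the 31 with a mean of at least 6, 21 fell (67.7%) and 35.5% changed by at least 0.5, beside 35.3% and 19.6% of all genes of such a mean. By complex, 9 of 15 fell for complex I, 3 of 4 for II, 4 of 6 for III, 8 of 17 for IV and 2 of 3 for V. These counts are descriptions, and the difference between the lists was not tested.

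The largest falls among assembly factors were of genes for complex IV. Sco1, a copper chaperone gene, changed by -1.08 ± 0.10 (adjusted p = 1.7e-07), Cox17, which hands copper to it, by -0.98 ± 0.12, and Cox14 by -0.69 ± 0.084. For complex I they were Timmdc1 (-0.84 ± 0.12), Dmac1 (-0.71 ± 0.10) and Tmem186 (-0.68 ± 0.065). For complex III they were Uqcc3 (-0.78 ± 0.093), Bcs1l, which inserts the Rieske protein (-0.70 ± 0.089), and Uqcc2 (-0.61 ± 0.090, but -0.37 as the mean of its probe sets). For complex II they were Sdhaf1 (-0.74 ± 0.064), Sdhaf3 (-0.69 ± 0.12, with a mean under 6) and Sdhaf2 (-0.20 ± 0.062). For complex V they were Atpaf2 (-0.30 ± 0.054) and Atpaf1 (-0.24 ± 0.073). All of these calls held on removal of any single array, except Sdhaf2, lost without replicate 2 of either time, and Atpaf1, lost without replicate 3 of 0 min or replicates 1 or 2 of 600 min (adjusted p up to 0.11 for both). Both also lost their calls after quantile normalization (0.064 and 0.063), and Atpaf1 with only the arrays compared (0.074). The factor gene that rose, Ndufaf7 (0.17 ± 0.061), lost its call without any one array except replicate 1 of 600 min (up to 0.23), with the replicate block (0.074), with trend and robust eBayes (0.092) and with only the arrays compared (0.052).

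**Figure D4:**
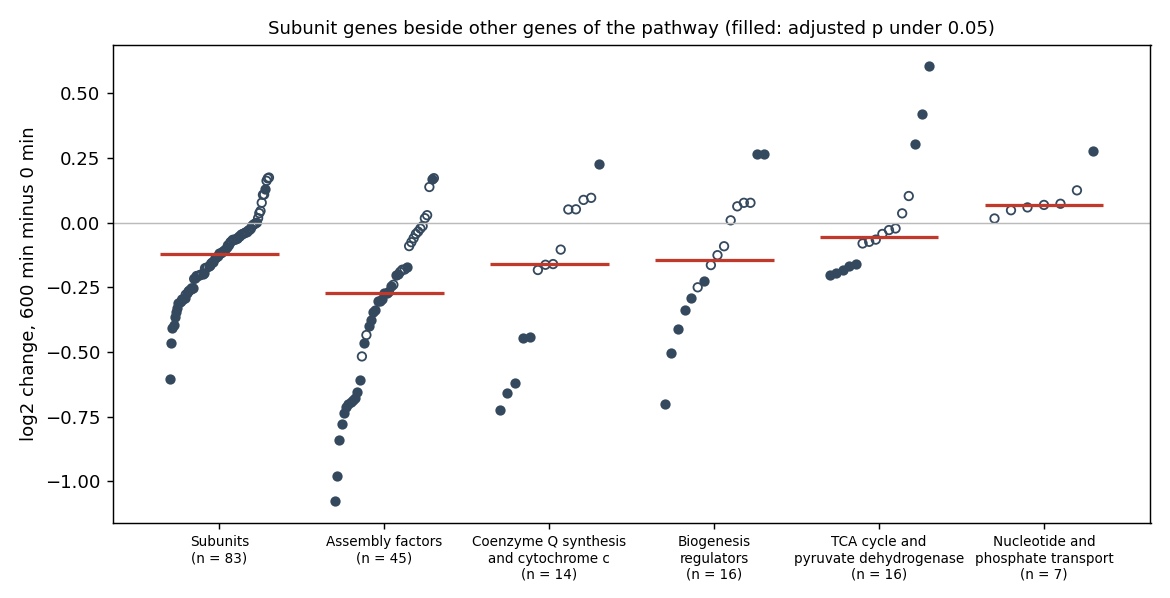
Log2 change at 600 min against 0 min (vertical axis) of the 83 subunit genes beside 5 other lists of genes of the pathway, each ordered by change. Filled points passed an adjusted p of 0.05 and red bars are medians. Assembly factors reach -1.08 and have a median of -0.27, beside -0.12 for the subunits, and no gene of the nucleotide and phosphate transport list lies below 0.

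Of 14 genes for the mobile electron carriers and coenzyme Q synthesis 5 fell (35.7%) and 1 rose, and of those with a mean of at least 6, 45.5% fell, beside 35.3% of all genes of such a mean. Coq9 (-0.72 ± 0.085), Coq4 (-0.66 ± 0.072) and Coq2 (-0.62 ± 0.071), all needed to make coenzyme Q, fell furthest, and the calls held on removal of any single array. Each estimate was larger in size than that of any subunit gene. Coq2 exceeded Ndufa11 (-0.60) by less than the SE of Coq2, and these differences were not tested. Coq8b (0.23 ± 0.078), which had a mean under 6, rose. It lost its call without replicates 2 or 3 of 0 min or replicates 1 or 2 of 600 min (adjusted p up to 0.18). The call was also lost with the replicate block (0.055) and with only the arrays compared (0.12). Of 7 genes for nucleotide and phosphate transport 1 rose (14.3%, beside 11.2% of all genes), the ADP/ATP carrier gene Slc25a4 (0.28 ± 0.064). None of the 7 fell, beside 15.7% of all genes. Of the 6 with a mean of at least 6, 16.7% rose, near the 20% of all genes of such a mean.

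Of 16 regulators of mitochondrial biogenesis 6 fell and 2 rose. Of the 12 with a mean of at least 6, 41.7% fell and 16.7% rose, near the 35.3% and 20% of all genes of such a mean. Tfb1m, a mitochondrial ribosomal RNA methyltransferase gene (-0.70 ± 0.15), Esrra, which encodes an ERR factor (-0.50 ± 0.090), and Tfb2m, a mitochondrial transcription factor gene (-0.41 ± 0.083), fell furthest. Esrra had a mean under 6. Gabpa, the DNA-binding part of GABP (0.27 ± 0.082), and Yy1 (0.26 ± 0.077) rose. The Gabpa call was lost without replicate 1 of 0 min or replicates 1 or 3 of 600 min (adjusted p up to 0.11), and the Yy1 call on removal of replicate 2 of 0 min or replicate 1 of 600 min (up to 0.087).

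Of 16 genes of the tricarboxylic acid cycle and pyruvate dehydrogenase, which supply NADH and succinate, 5 fell (31.2%) and 3 rose (18.8%), near the 35.3% and 20% of all genes with a mean of at least 6. Ogdh, of the 2-oxoglutarate dehydrogenase complex (0.60 ± 0.065), Sucla2 of succinyl-CoA ligase (0.42 ± 0.072) and the citrate synthase gene Cs (0.30 ± 0.049) rose. Idh3g (-0.20 ± 0.045), Dlst (-0.19 ± 0.049) and Pdhx (-0.19 ± 0.056) fell, and Pdhx lost its call without replicates 1 or 2 of 0 min or replicates 2 or 3 of 600 min (adjusted p up to 0.095), after quantile normalization (0.13) and with trend and robust eBayes (0.064). Of the 13 subunits encoded in mitochondrial DNA 2 had a probe set of their own. ND3 of complex I went from a mean of 12.58 to 12.76 (0.18 ± 0.053, adjusted p = 0.013) and COX2 of complex IV from 12.96 to 13.09 (0.13 ± 0.045, 0.035). The ND3 call was lost without replicate 3 of either time (up to 0.067), and the COX2 call without replicates 2 or 3 of 0 min or replicates 1 or 3 of 600 min (up to 0.16). After quantile normalization neither was called (0.075 for ND3, 0.097 for COX2). COX2 was not called with the replicate block (0.059), with centred arrays (0.067) or with only the arrays compared (0.09) either. Both were at the upper end of the signal range.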

How the data were processed

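RNA of NIH3T3 cells, 24 samples at 8 times with 3 biological replicates each, was labelled from 200 ng per sample and hybridised to MoGene 1.0 ST arrays, per the labels' protocols. The authors summarised the scans with RMA in Partek, per the submitters' processing notes. That the deposited values are log2 was inferred from their range and from RMA, and no software version was found in the labels. Array medians were 4.40 to 4.45. Precision is limited by 3 arrays per time: the SE of a subunit gene's change at 600 min was 0.029 to 0.24, with a median of 0.068. Averaged over the 8 times, each probe set has one and the same mean in replicates 1, 2 and 3, to within 8.75e-05. An effect of replicate number had thus been removed before deposit, and no label describes that step. The fit does not count the degrees of freedom this used (16 residual in the main design, 14 with the replicate number in it), so p-values are somewhat too small.

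Of 35399 probe sets 21789 carried 1 symbol, 1621 several and 11989 none, in GEO's platform annotation. The 1-symbol probe set with the highest mean was kept for each of 19938 genes. limma 3.58.1 in R 4.3.3 fitted a mean per time to all 24 arrays, with Benjamini-Hochberg adjustment over all genes within each comparison, and calls at an adjusted p under 0.05. Changes are log2 differences. The script was tested on simulated data. The labels do not say whether a replicate number marks a shared batch. The deposited values cannot tell, because removing the replicate effect sets the correlation of same-numbered arrays, so fits with and without the number as a block are both given. Named are the up to 3 (complex I: 5) largest called changes each way per complex at 600 min, all complex II genes, Cyc1, tested paralogues, and up to 3 each way per other list. The subunit genes and the lists were chosen with earlier results of these data known, and complexes are compared by counts and medians only. Alternatives changed the filter, probe set choice, scaling, normalization, arrays and model. Promoter windows are RefSeq's, on build GRCm38.p6.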

Additional observations from a re-analysis of the deposited data

How the results depend on the processing

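The counts of subunit genes that fell at 360, 480 and 600 min stayed within 1.5 times of those given under the replicate block, without genes of mean under 6, with the mean of all probe sets, with arrays centred on their medians, with quantile normalization, with only the arrays compared and with trend and robust eBayes. So did the counts of assembly factors that fell. Small counts moved most. With the replicate block, 1 subunit gene was higher at 480 min and 0 at 600 min, and 0 assembly factors were higher. The block left out the calls of Cyc1, Ndufa13, Ndufb11, Uqcrc1 and Uqcrq at 600 min, and whether the numbers pair the samples could not be told. With arrays centred on their medians, 1 was lower at 240 min and 1 higher at 480 min. With quantile normalization 2 were higher at 360 min, 3 at 600 min and 5 late against early, 3 assembly factors were higher, and the complex I median was -0.17. With only the arrays compared 3 subunit genes and 0 assembly factors were higher at 600 min, and with trend and robust eBayes 0 assembly factors were. Without both arrays that lay away from their time, an alternative chosen after seeing the data, 1 was higher at 240 min and 2 at 600 min. With that and the block, 11 were lower late against early. Causes of these moves were not tested.

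Leaving out each array in turn gave 0 to 1 subunit genes higher at 240 min, 0 to 2 at each of 360, 480 and 600 min and 2 to 5 late against early. It gave 1 to 6 lower at 360 min, 8 to 12 at 480 min, 17 to 24 at 600 min and 11 to 18 late against early, and 14 to 23 by the F-test. Assembly factors gave 22 to 25 lower and 0 to 2 higher. Medians at 600 min ranged from -0.23 to -0.19 for complex I, -0.14 to -0.06 for II, -0.14 to -0.10 for III, -0.094 to -0.053 for IV and -0.12 to -0.08 for V. Paralogue shifts ranged from -0.22 to -0.14 for Atp5g1 to Atp5g3, -0.16 to -0.092 for Atp5g2 to Atp5g3, -0.08 to -0.02 for Atp5g1 to Atp5g2 and -0.06 to -0.01 for Cox7a2 to Cox7a2l. Of the 25 subunit genes called at 600 min 14 kept the call whichever array was left out, and no named change reversed under any alternative run.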
